A study of Mus musculus with 21 samples.

Results

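Dorsal root ganglia from mice of a CFA model were set against untreated ganglia whose library names carry the letter L. The members are the 8 libraries whose names begin with CFA and the 3 L-coded untreated libraries (con_FL_1, con_ML_2 and ko_ML_2), 11 of the 21 libraries of the series, compared over the 24381 genes listed in both deposited tables with genotype as a covariate. The CFA libraries were 4 from Tmem45b-flox::Mrgprd-cre mice (cKO) and 4 from Tmem45b-flox mice (flox). The L-coded libraries were 1 cKO library (library 7) and 2 flox libraries (libraries 5 and 6), with no treatment named. All mice carried the floxed Tmem45b allele, and Cre in the cKO mice was driven from Mrgprd, so recombination was limited to cells of that lineage. The labels do not spell out CFA, commonly used for complete Freund's adjuvant, which is injected to induce inflammation, and give neither the time after treatment, the age of the mice nor any pooling. The letters L, C, F and M in the untreated names are not explained in the labels. Other untreated libraries served for comparison: 6 named LDRG (3 cKO, 3 flox) and 4 coded C (3 cKO, 1 flox). Levels are given as CPM, counts scaled to a common library size with TMM factors, differences as log2 CFA minus L-coded, and genes are called at a Benjamini-Hochberg adjusted p under 0.05 in edgeR's quasi-likelihood test. Wherever 3 L-coded levels follow each other, they are those of cKO library 7, flox library 5 and flox library 6.

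A dorsal root ganglion holds the cell bodies of sensory neurons, wrapped by satellite glia and mixed with Schwann cells, fibroblasts, blood vessels and resident macrophages. In inflammatory pain models, nociceptors are known to respond to cytokines, prostaglandins and neurotrophins with altered ion channels and neuropeptides, and macrophages of the ganglion can expand. Neutrophils and red cells reach a ganglion sample through blood or neighbouring bone marrow. In bulk RNA, fewer cells of a type and less RNA per cell cannot be told apart.

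The CFA libraries held 68922332 to 71790252 counts each and the L-coded libraries 64562564 to 65157714. The CFA libraries were deposited in a table with the LDRG set, and the L-coded libraries in another table with the C-coded set, so CFA treatment, deposited table and naming scheme cannot be told apart. Xist, the RNA of the silenced X chromosome, had 283 to 465 CPM in the CFA set and 316 CPM in L-coded flox library 5, but only 0 CPM in flox library 6 and 0.0892 CPM in cKO library 7. Ddx3y, on the Y chromosome, was the reverse, with no count in the CFA libraries and flox library 5 and at 85.2 and 72.7 CPM in the other 2. Of 589 X chromosome genes tested, a list chosen after its values were seen, 187 were higher and 83 lower in CFA. These made 31.7% and 14.1%, beside 20.3% and 20.0% of all genes. Sex and CFA can be told apart only through flox library 5. On the first principal component of the 1000 genes that varied most, which carried 36.3% of their variance, CFA libraries were placed at -35.3 to -2.80 and the L-coded libraries at 44.8 to 78.9. A pair of Hox genes of posterior body levels were present in both arms. Hoxa9 lay at 48.9 to 67.8 CPM (median 53.4) in CFA and at 48.8, 44.0 and 42.7 CPM in the L-coded libraries, against 0.455 to 1.09 CPM in the C-coded set. Hoxa10 lay at 31.7 to 40.5 CPM (median 36.9) in CFA, at 31.5, 26.9 and 29.9 CPM in the L-coded libraries and no higher than 0.164 CPM in the C-coded set. Neuronal markers were abundant in every library, the neurofilament gene Nefl lying at 5017 CPM or more in CFA and 3807 CPM or more in the L-coded set. The labels do not tie libraries to animals, and p-values therefore cover only the spread among these libraries, which may be technical.

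Tmem45b (chr9:31426196-31464462 in GRCm38, minus strand, GENCODE vM21), which encodes a transmembrane protein and is the gene deleted in the cKO mice, did not pass the test between the arms. CFA cKO libraries 1 to 4 had 108, 105, 67.7 and 62.6 CPM, and the L-coded cKO library 85.3 CPM. CFA flox libraries 1 to 4 had 65.5, 115, 136 and 80.0 CPM, and L-coded flox libraries 5 and 6 179 and 156 CPM. The 4 libraries labelled CFA cKO overlapped with the 4 labelled CFA flox, while the L-coded cKO library lay below both L-coded flox libraries. In the LDRG set, cKO libraries had 59.7 to 72.4 CPM and flox libraries 124 to 145 CPM. The log2 difference between CFA and L-coded libraries was -0.47 (SE 0.26, edgeR adjusted p = 0.170, 2-sided exact permutation p = 0.0970). Mrgprd, the receptor gene that drives the Cre, lay at 113 to 207 CPM (median 158) in CFA and at 128, 127 and 139 CPM in the L-coded libraries. Its log2 difference of 0.34 (SE 0.12) passed the edgeR test narrowly (adjusted p = 0.0411). The groups overlapped, the 2-sided exact permutation p was 0.121, and the call was lost under most other settings, for example without any 1 of the 3 L-coded libraries. With 8 against 3 libraries the smallest p the permutation test can give is 0.00606.

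Across the genome the 2 arms differed widely. Of 17314 genes tested, 6979 passed an edgeR adjusted p of 0.05 (40.3%), 3522 higher in CFA (20.3%) and 3457 lower (20.0%). Large differences were mostly decreases: 113 genes were at least 2-fold higher and 1207 at least 2-fold lower in CFA, and at 4-fold the counts were 21 and 605. All 8 CFA libraries lay above all 3 L-coded libraries for 15.0% of genes and below them for 17.5%. The untreated sets also differed from each other. LDRG against L-coded libraries gave 7409 of 17296 genes (42.8%, with 20.7% higher in LDRG and 22.1% lower). The C-coded against the L-coded libraries of the same table gave 191 of 17291 (1.10%, with 0.0868% higher in C-coded and 1.02% lower). That fit held 4 against 3 libraries. In it 3244 genes had an unadjusted edgeR p under 0.05, beside 8718 in LDRG against L-coded libraries. The few calls therefore do not show the C-coded and L-coded sets to be alike. CFA against LDRG libraries, which share a table, gave 2861 of 16547 (17.3%, with 9.87% higher in CFA and 7.42% lower). All LDRG libraries had Xist at only 0.101 to 0.330 CPM and Ddx3y at 75.1 to 91.4 CPM, the reverse of the CFA libraries. Sex and CFA therefore cannot be told apart in any comparison of CFA with LDRG libraries. Against the only F-coded L-coded library, flox library 5, which shares the high Xist of the CFA libraries, 1194 of 17061 genes were called in CFA, 380 higher (2.23%) and 814 lower (4.77%). In that fit 1 library stands for the untreated arm, so its spread comes from the CFA libraries alone and library 5 is assumed to vary like them. With a score of sex-linked genes as a covariate, 1385 were called (635 higher, 750 lower). Against all F-coded untreated libraries, which had Xist at 283 to 322 CPM, 7693 of 16834 genes were called (3583 higher, 4110 lower). Apart from flox library 5 these are C-coded, a set low in Hoxa9 and Hoxa10. In the paragraphs that follow, values of CFA against LDRG libraries, and for some lists of LDRG against L-coded libraries, are given after those of CFA against L-coded libraries. These comparisons share libraries and are not independent of each other. The share of all genes called in the same comparison is the background for each count of list members.

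**Figure D1:**
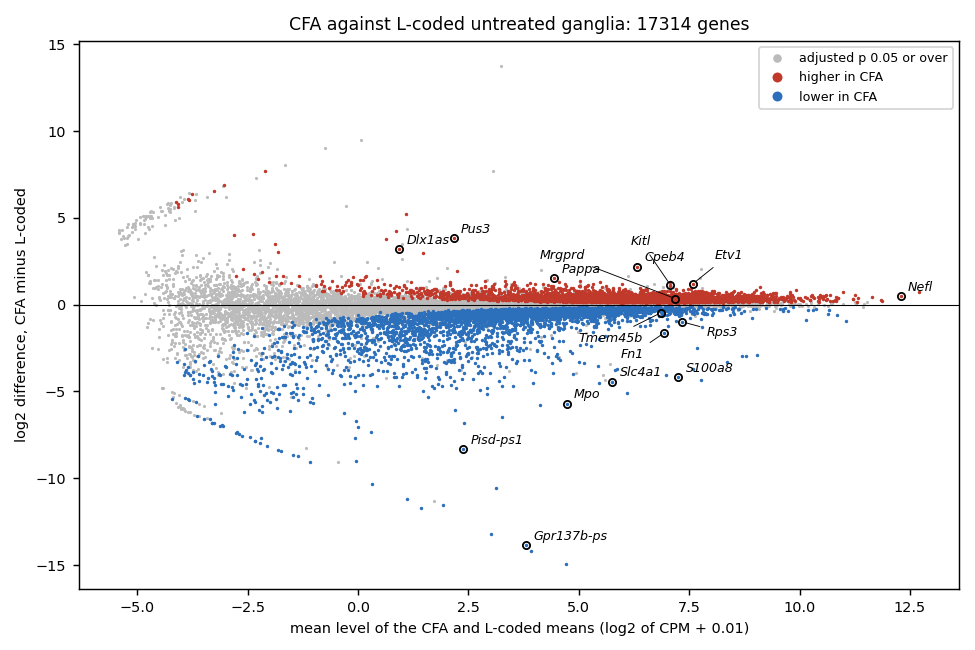
Log2 difference between CFA and L-coded untreated libraries (vertical axis, edgeR) against mean level (horizontal axis, log2 of CPM + 0.01) for 17314 genes, with called genes in colour and 16 named genes circled. The 605 called genes at least 4-fold lower in CFA form the lower arm, against 21 at least 4-fold higher.

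Blood cell genes were lower in CFA ganglia by a wide margin. All 18 neutrophil genes fell (median log2 difference -3.63), as did all 8 red cell genes (median -3.12), beside 20.0% of all genes. S100a8 (chr3:90668978-90670035, plus strand), a subunit of the calprotectin complex of neutrophil cytoplasm, lay at 7.43 to 27.3 CPM (median 15.3) in CFA, against 491, 108 and 272 CPM in L-coded cKO library 7 and flox libraries 5 and 6. Every CFA library was below every L-coded library, and the log2 difference was -4.17 (SE 0.44, edgeR adjusted p = 8.37e-05). Mpo, the myeloperoxidase of granule precursors, fell by more, with 0.347 to 1.45 CPM (median 0.867) in CFA against 107, 11.5 and 37.4 CPM in the L-coded libraries (log2 difference -5.71, SE 0.54, edgeR adjusted p = 5.48e-05). Mmp9, a gelatinase stored in neutrophil granules, and Csf3r, the receptor for granulocyte colony-stimulating factor, had log2 differences of -3.31 and -3.12. Summed over the 18 genes, neutrophil transcripts made 57.6 to 182 CPM in CFA and 3256, 649.9 and 1680.4 CPM in the L-coded libraries. The same sum was 5.14 to 10.9 CPM in the LDRG set and 178 to 341 CPM in the C-coded set, so the CFA libraries lay above the LDRG set and below the L-coded set. Against LDRG libraries, 17 of the 18 genes were higher in CFA (median 4.03), and LDRG against L-coded libraries had all 18 lower (median -8.12). Against L-coded flox library 5 alone, 7 neutrophil genes and 5 red cell genes were called lower.

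Red cell genes followed the same order. Slc4a1, the band 3 anion exchanger of the red cell membrane, lay at 1.78 to 7.84 CPM (median 4.69) in CFA and at 158, 43.0 and 110.1 CPM in the L-coded libraries (log2 difference -4.45, SE 0.45, edgeR adjusted p = 7.31e-05). The summed red cell level was 221 to 639.8 CPM in CFA, 1669 to 4540.0 CPM in the L-coded set and 49.7 to 69.3 CPM in the LDRG set. With a red cell score as a covariate, 5 genes of the whole comparison were called. The score itself separates the arms, so red cell content and CFA cannot be told apart in this design.

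Macrophage and lymphocyte genes were lower in CFA as well. Of 21 macrophage genes, 18 fell and none rose (median -1.22). Lyz2, the macrophage and neutrophil lysozyme, lay at 50.3 to 74.2 CPM (median 63.0) in CFA, against 506, 161 and 384 CPM in the L-coded libraries, a log2 difference of -2.50 (SE 0.23, edgeR adjusted p = 5.45e-05). Itgam, the CD11b integrin of neutrophils and macrophages, differed by -2.94 (SE 0.30). C1qc, a subunit of the complement initiator C1q that tissue macrophages make, differed by -1.22 (SE 0.13), with 9.50 to 11.3 CPM (median 10.6) in CFA and 32.5, 16.9 and 25.0 CPM in the L-coded libraries. Against LDRG libraries 12 of the 21 genes were higher in CFA and none lower (median 0.45), Lyz2 by 0.79 (SE 0.10) and C1qc by 0.29 (SE 0.07). Of 14 T and B cell genes, 8 fell and none rose. The B cell receptor component Cd79a differed by -3.54 (SE 0.26). CFA against LDRG libraries gave 3 T and B cell genes higher and none lower.

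**Figure D2:**
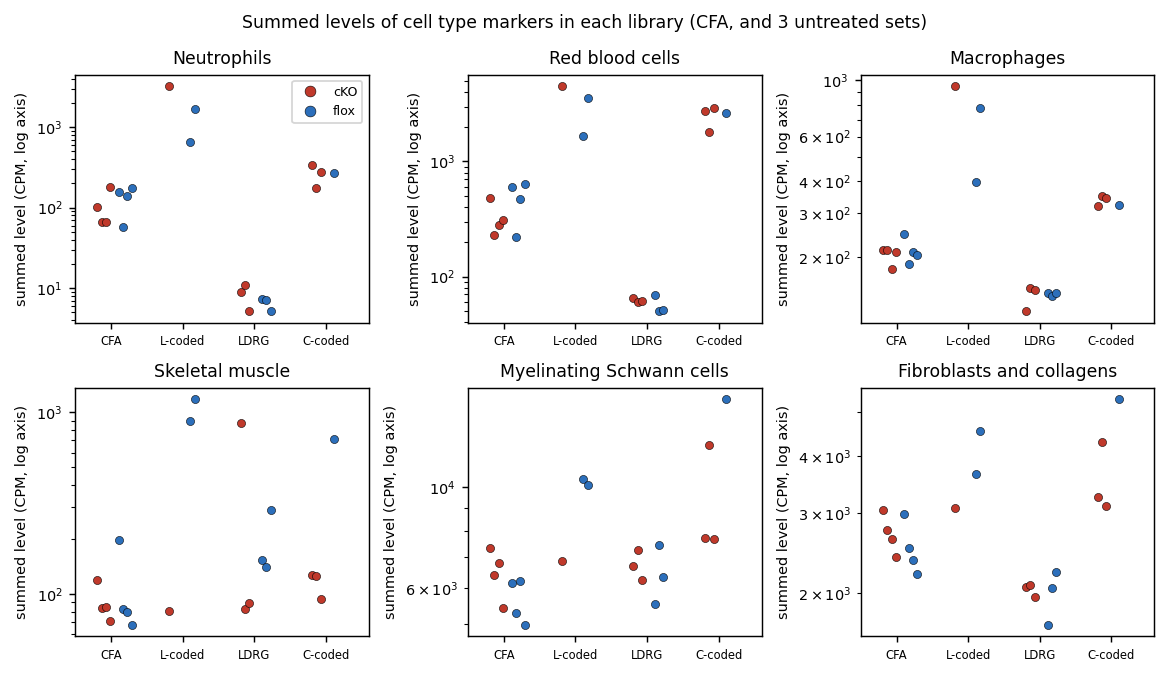
Summed level of 6 marker lists (vertical axes, CPM, log scale) in each library, by set (horizontal axes) and genotype (colour, cKO left of flox within a set); each point is 1 library. Neutrophil and red cell sums in CFA lie between those of the L-coded and the LDRG untreated sets. Muscle sums are high in L-coded flox libraries 5 and 6, and also in LDRG cKO library 1 and C-coded flox library 4.

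Antigen presentation and innate immune genes fell in CFA relative to the L-coded set. Of 19 class I and class II MHC and peptide-loading genes, 17 fell and none rose (median -0.74). H2-T23, a nonclassical class I molecule, lay at 12.5 to 20.1 CPM (median 16.8) in CFA and at 37.7, 46.3 and 36.1 CPM in the L-coded libraries (log2 difference -1.26, SE 0.13). H2-Ab1, a class II chain, differed by -1.15 (SE 0.15). Against LDRG libraries 9 of the MHC genes were lower in CFA and none higher (median -0.38), unlike the macrophage genes. Against flox library 5 alone 10 were lower. Of 15 complement genes 10 fell, among them C3, the central component (-2.26, SE 0.26), and C5ar1, the receptor for the C5a fragment (-2.47, SE 0.23). The complement list ran the other way against LDRG libraries, with 7 genes higher in CFA and none lower (median 0.29; C5ar1 0.66, SE 0.21), and LDRG against L-coded libraries had 13 lower. Of 29 cytokine and chemokine genes 12 fell and none rose, while against LDRG libraries 3 were higher and 1 lower. Ccl5, a lymphocyte chemokine, was near the floor of detection at 0.231 to 0.616 CPM (median 0.436) in CFA against 2.08, 1.32 and 2.12 CPM in the L-coded libraries, and Tgfb1, a growth factor of many cell types, lay at 3.11 to 4.65 CPM (median 3.86) in CFA against 15.0, 5.82 and 10.4 CPM in the L-coded libraries (log2 difference -1.40, SE 0.20). The list named Interferon response was mixed, with 2 of 29 genes higher and 7 lower. Oas3, an antiviral oligoadenylate synthase, fell (-2.04, SE 0.40) and Oasl2 rose (0.83, SE 0.20), although Oasl2 at 88.3 CPM in L-coded flox library 5 lay within the CFA range of 75.5 to 124 CPM. Oasl2 did not pass without cKO library 7. The interferon response list turned on flox library 5: without it 6 genes were higher and 2 lower (median 0.38), and against it alone none was higher and 8 lower (median -1.03). Against LDRG libraries none was higher and 8 lower.

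Acute-phase and STAT3 target genes, which cytokines of the interleukin-6 family induce, fell for 10 of 20 members and rose for 1. Cebpd, a transcription factor of that response, lay at 4.51 to 6.07 CPM (median 5.35) in CFA and at 18.1, 13.1 and 17.5 CPM in the L-coded libraries, with no overlap (log2 difference -1.63, SE 0.11, edgeR adjusted p = 1.51e-05). Cebpd did not pass the test against LDRG libraries (-0.10, SE 0.10, edgeR adjusted p = 0.535). Lrg1 (-2.55), Hp (-3.86) and Lcn2 (-3.54), whose proteins neutrophils also store, had larger differences. Of 12 NF-kappaB subunits and inhibitors 7 fell and none rose, with 4 lower when cKO library 7 was left out. The same 12 genes had 2 higher and 1 lower in CFA against LDRG libraries, and 9 lower in LDRG against L-coded libraries.

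Most glucocorticoid-responsive and metallothionein genes were lower in CFA than in the L-coded set. Of 20 members, 15 fell and none rose (median -0.78), leaving out single libraries gave 13 to 16 lower, and 13 were lower against flox library 5 alone. The glucocorticoid receptor binds DNA as a pair over inverted half-sites, and a search of the 250 bases before RefSeq gene starts (GRCm38.p6) for GNACANNNTGTNC, which reads alike on both strands, found it in 119 of 27025 genes (0.440%). Among the 16 list members in that promoter table it was found before Sgk1 and Mt1, whose stretches are shown with the motif in capitals, Sgk1 at chr10:21993657-21993759 and Mt1 at chr8:94178950-94179052, both on the plus strand.
Sgk1: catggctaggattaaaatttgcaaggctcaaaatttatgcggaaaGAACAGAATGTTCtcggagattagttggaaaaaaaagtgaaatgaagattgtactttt
Mt1: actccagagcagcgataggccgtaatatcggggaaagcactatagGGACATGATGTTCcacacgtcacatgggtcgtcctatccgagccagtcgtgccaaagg
The motif begins 188 bases before a start of Sgk1 and 94 bases before that of Mt1; a match is a description of the letters and not a measured binding site.

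Sgk1, a kinase whose transcription glucocorticoids induce, lay at 23.3 to 34.3 CPM (median 28.1) in CFA and at 53.4, 69.8 and 50.7 CPM in the L-coded libraries. All CFA libraries were below all L-coded ones, with a log2 difference of -1.04 (SE 0.12, edgeR adjusted p = 9.98e-05). Sgk1 was also lower in CFA than in LDRG libraries (-0.47, SE 0.08, edgeR adjusted p = 0.00138). Mt1, a metal-binding metallothionein, differed by -0.40 (SE 0.21, edgeR adjusted p = 0.141) from the L-coded set and did not pass, and it was higher in CFA than in LDRG libraries (0.54, SE 0.13, edgeR adjusted p = 0.0122). Nfkbia, the inhibitor of NF-kappaB, had 9.15 to 14.7 CPM (median 10.3) in CFA against 41.1, 28.9 and 27.8 CPM in the L-coded libraries (log2 difference -1.59, SE 0.13), and -0.37 (SE 0.10, edgeR adjusted p = 0.0253) against LDRG libraries. Per1, a clock gene with glucocorticoid-responsive transcription, fell in both comparisons, with log2 differences of -0.94 (SE 0.09) against the L-coded and -0.29 (SE 0.07) against the LDRG set. Angptl4, a secreted inhibitor of lipoprotein lipase, fell, with 10.9 to 13.3 CPM (median 11.9) in CFA against 25.2, 24.9 and 26.1 CPM in the L-coded libraries. The list as a whole had 4 genes higher and 8 lower in CFA against LDRG libraries (median -0.19). Of the 19 clock genes, which share Per1 with this list, 5 fell and 1 rose (26.3% and 5.26%, beside 20.0% and 20.3% of all genes). The 1 that rose was the repressor Nr1d2 (0.50, SE 0.12), which did not pass without cKO library 7. Leaving out single libraries gave 1 to 5 clock genes lower, the fewest without flox library 6.

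Immediate early genes, which neurons and other cells switch on within minutes of stimulation or of dissection, fell for 14 of 30 members and rose for none. Klf2, a transcription factor of endothelium and leukocytes, lay at 2.68 to 4.995 CPM (median 4.07) in CFA, against 16.0, 10.2 and 15.1 CPM in the L-coded libraries (log2 difference -1.79, SE 0.16, edgeR adjusted p = 4.13e-05). Klf4 (-1.55, SE 0.13), Zfp36, an mRNA-destabilising protein (-1.47, SE 0.14), and the matrix protein gene Ccn2 (-1.55, SE 0.15) fell by similar amounts. Against LDRG libraries Klf2, Klf4 and Zfp36 did not pass the test, and Ccn2 was higher in CFA (0.60, SE 0.16). Klf2 spanned 2.38 to 4.46 CPM in the LDRG set, and its log2 difference between CFA and LDRG libraries was 0.24 (SE 0.14, edgeR adjusted p = 0.258). Against flox library 5 alone 6 of the 30 genes were lower and none higher.

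Genes of ribosomes and mitochondria were lower in CFA. Of 62 cytosolic ribosomal protein genes 36 fell and none rose (median -0.60). Rps3, of the small subunit, lay at 99.3 to 113 CPM (median 106) in CFA and at 212, 202 and 234 CPM in the L-coded libraries (log2 difference -0.99, SE 0.05, edgeR adjusted p = 1.58e-06). Its LDRG range of 104 to 121 CPM overlapped with CFA and its C-coded range of 199.5 to 239 CPM with the L-coded set. Rpl32, of the large subunit, behaved alike (-1.02, SE 0.08, against L-coded, and 0.01, SE 0.05, against LDRG libraries). Many ribosomal protein genes have near-identical processed pseudogenes, so their counts are uncertain where reads could be shared. Against LDRG libraries 1 ribosomal protein gene was higher in CFA and none lower (median -0.08). Of 32 nuclear genes of oxidative phosphorylation 15 fell and 3 rose, and 1 rose without flox library 6. Ndufb1 (-1.39, SE 0.08) and Ndufa5 (-1.002, SE 0.08), of respiratory complex I, and Atp5j, of ATP synthase (-0.68, SE 0.05), were each lower in all 8 CFA libraries than in all 3 L-coded libraries, and none of the 3 passed against LDRG libraries.

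The direction of change followed transcript length over all genes. With genes split into 5 bins of equal size by their longest annotated transcript, in the shortest bin (38 to 1761 bases) 4.65% were higher and 31.8% lower in CFA, with a median log2 difference of -0.26. In the longest bin (5102 to 106824 bases) 39.2% were higher and 9.81% lower, with a median of 0.17. LDRG against L-coded libraries had medians of -0.26 in the shortest and 0.05 in the longest bin, and CFA against LDRG libraries -0.03 and 0.10. The trend was thus present between the untreated sets of the 2 tables as well. The part of transcript length in the gene groups, ribosomal and ion channel genes among them, was not tested.

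**Figure D3:**
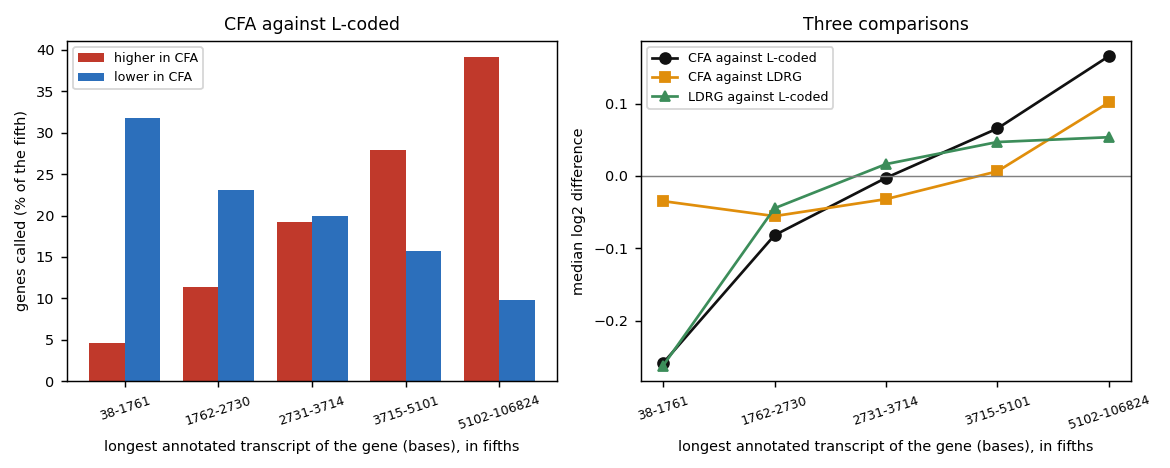
Left, share of genes called higher or lower in CFA than in L-coded libraries (vertical axis, %) by bin of transcript length, 5 bins of equal size (horizontal axis, bases); right, median log2 difference of each bin in 3 comparisons. The share called higher climbs from 4.65% to 39.2% with length and the share called lower drops from 31.8% to 9.81%.

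The fibroblast, endothelial, pericyte and muscle lists held more genes lower than higher in CFA. Of 22 fibroblast and collagen genes 13 fell and 1 rose (median -0.53). Fn1, fibronectin, lay at 46.0 to 87.4 CPM (median 52.4) in CFA and at 175, 163 and 219.7 CPM in the L-coded libraries (log2 difference -1.63, SE 0.18), and Col1a1, the main chain of collagen I, differed by -0.91 (SE 0.12). Against LDRG libraries the direction was the opposite, with 16 genes of the list higher and none lower (Fn1 1.42, SE 0.16; Col1a1 0.75, SE 0.11). Of 13 endothelial genes 7 fell and none rose, and of 11 pericyte and smooth muscle genes 4 fell and none rose. Without flox library 6 these counts were 3 and 2, and the pericyte count was also 2 without flox library 5 or without CFA flox library 2. CFA against LDRG libraries gave 4 endothelial genes higher and 2 lower, and 1 pericyte gene higher. Skeletal muscle genes, used here as marks of attached muscle, fell for 10 of 16 members. Yet their sum was 67.8 to 199 CPM in CFA against 80.5, 892 and 1180.4 CPM in the L-coded set, so that cKO library 7 lay within the CFA range. The muscle sum was also uneven in the other untreated sets, at 82.6 to 871 CPM in LDRG and 93.7 to 709 CPM in C-coded libraries. Without CFA flox library 1, whose muscle sum was the highest of its arm, 14 muscle genes were lower. Without flox library 6 there were 5, and without CFA flox library 2, 3 or 4 there were 6. Casq1, the calcium store protein of muscle, had 1.248 to 4.34 CPM (median 1.81) in CFA against 2.87, 18.9 and 19.2 CPM in the L-coded libraries, and the muscle calcium release channel Ryr1 had 1.27 to 3.58 CPM against 1.98, 15.0 and 26.0 CPM in the L-coded libraries.

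Myelin genes of Schwann cells fell for 8 of 16 members and rose for 1. Mbp, a myelin protein gene, differed by -0.53 (SE 0.14), and Egr2, the transcription factor of myelinating cells, by -1.47 (SE 0.39). Mbp lost the call without flox library 6 and Egr2 without flox library 5. Without flox library 6 the list had 3 genes lower, without flox library 5 it had 4 and without cKO library 7 it had 13. The fibroblast list likewise gave 7 lower without flox library 6 and 17 without cKO library 7. The part of attached tissue in these lists was not tested beyond a muscle score as covariate, which left 4 fibroblast and no myelin genes lower. Satellite glia genes went both ways, with 5 of 14 higher and 2 lower; 2 were higher and 4 lower without cKO library 7, and 3 higher without CFA cKO library 4 or CFA flox library 1.

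Genes of large myelinated sensory neurons and of neuronal excitability were higher in CFA than in the L-coded set. Of 14 A-fibre neuron genes 8 rose and none fell (median 0.45), beside 20.3% of all genes. Etv1 (chr12:38779380-38870484, plus strand), a transcription factor of proprioceptors and mechanoreceptors, lay at 198 to 371 CPM (median 259) in CFA and at 115, 121 and 109 CPM in the L-coded libraries, a log2 difference of 1.19 (SE 0.13, edgeR adjusted p = 9.15e-05). It was also higher in CFA than in LDRG libraries (0.37, SE 0.08, edgeR adjusted p = 0.00835). The neurofilament chains Nefl (0.47, SE 0.06) and Nefh (0.45, SE 0.08) rose against the L-coded set but fell against LDRG libraries (-0.16 and -0.19). Over the whole list, 2 genes were higher and 3 lower in CFA against LDRG libraries, and against flox library 5 alone 1 was higher and none lower (median 0.32).

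Voltage-gated channel genes rose more often than they fell. Of 13 sodium channel genes 7 rose and none fell, of 24 potassium channel genes 14 rose and 1 fell, and of 15 calcium channel genes 8 rose and 3 fell. Against flox library 5 alone 1 gene of each of these 3 lists was higher, with medians of 0.27, 0.24 and 0.30. Without cKO library 7, 8 potassium, 5 calcium and 3 sodium channel genes were higher, and without either L-coded flox library 4 sodium channel genes were. Scn8a, the channel that fires at nodes of Ranvier, lay at 264 to 362 CPM (median 312) in CFA and at 221, 198 and 193 CPM in the L-coded libraries (log2 difference 0.64, SE 0.10). Its auxiliary subunit gene Scn4b differed by 0.50 (SE 0.07). Kcna2 (chr3:107101146-107115005, plus strand), a juxtaparanodal channel that limits repetitive firing, was above all 13 untreated libraries in all 8 CFA libraries, with 615 to 748 CPM (median 686) in CFA, 459.5, 478 and 454 CPM in the L-coded and 499.9 to 597 CPM in the LDRG set. Its log2 difference was 0.58 (SE 0.06, edgeR adjusted p = 7.54e-05) against L-coded and 0.32 (SE 0.05, edgeR adjusted p = 8.21e-04) against LDRG libraries. Kcnq3, of the M-current that damps excitability, rose by 0.73 and 0.27 in the same 2 comparisons, and Kcnk18, the TRESK leak channel of nociceptors, by 0.67 and 0.27. The pacemaker channel Hcn2 rose against the L-coded set (0.64, SE 0.10). Cacna2d3, an auxiliary calcium channel subunit, rose by 0.53 (SE 0.06) and Cacna1a, the P/Q-type pore, by 0.52 (SE 0.08); neither passed against LDRG libraries.

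Inhibitory receptor genes were higher too, with 7 of 12 opioid, cannabinoid and GABA receptor genes up and 1 down. Against flox library 5 alone 1 was higher and 1 lower, and against LDRG libraries 2 were higher and none lower. Cnr1, the neuronal cannabinoid receptor, had 56.4 to 111 CPM (median 75.6) in CFA against 44.0, 44.8 and 39.3 CPM in the L-coded libraries (log2 difference 0.83, SE 0.14), whereas Cnr2, the cannabinoid receptor of leukocytes, fell (-2.93, SE 0.33). Of 11 neurotrophin and GDNF receptor genes 5 rose, among them Gfra1 (0.22, SE 0.04) and Lifr (0.50, SE 0.09), and 1 fell. The rises numbered 3 without cKO library 7, and CFA against LDRG libraries gave 2 higher and 3 lower. Of 15 TRP channel genes 2 rose and 1 fell, 4 rose without CFA cKO library 1 or CFA flox library 3, and none was called against LDRG libraries. Trpa1, the irritant sensor of nociceptors, lay at 78.2 to 109 CPM (median 91.7) in CFA against 71.7, 71.8 and 71.0 CPM in the L-coded libraries (log2 difference 0.39, SE 0.08) and Trpc1 rose by 0.49 (SE 0.04).

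The neuropeptide and Mrgprd-type neuron lists held few called genes, 3 of 15 and 3 of 12, beside 40.3% of all genes. Of 15 neuropeptide genes none rose and 3 fell, Gal, Nppb and Penk, the same 20.0% that fell among all genes. Galanin, encoded by Gal (chr19:3409915-3414544, minus strand) and typically raised by nerve injury, lay at 5.33 to 7.22 CPM (median 6.37) in CFA against 12.4, 10.8 and 12.6 CPM in the L-coded libraries (log2 difference -0.88, SE 0.11, edgeR adjusted p = 1.47e-04), and every CFA library lay below every untreated library of the series, the lowest at 7.25 CPM. Nppb, the itch neuron peptide (-1.17, SE 0.16), and Penk, the enkephalin precursor (-1.35, SE 0.28), were lower than in the L-coded set, but did not pass against LDRG libraries (-0.21 and 0.00358). Of 12 Mrgprd-type nonpeptidergic neuron genes, Mrgprd rose and 2 fell, one of them the GDNF family receptor Gfra2 (-0.38, SE 0.07). Of 6 genes of C-fibre low-threshold mechanoreceptors 3 fell. Th, tyrosine hydroxylase, which marks these neurons, lay at 44.97 to 70.5 CPM (median 52.2) in CFA against 88.2, 117 and 108 CPM in the L-coded libraries (log2 difference -0.90, SE 0.13), and at 46.7 to 68.3 CPM in LDRG and 51.1 to 75.1 CPM in C-coded libraries. The L-coded set thus stood above all other sets for Th. Of 24 itch genes 6 rose and 3 fell (25.0% and 12.5%, beside 20.3% and 20.0% of all genes). Mrgprx1, an itch receptor of sensory neurons, rose (0.74, SE 0.09), and Il17ra, an interleukin receptor also found on leukocytes, fell (-1.89, SE 0.20). Of 19 nerve injury and regeneration genes 5 rose and 3 fell against the L-coded set (26.3% and 15.8%). Against the LDRG set 1 rose and 13 fell, and that set's own difference from the L-coded set was 10 higher and 1 lower. The 5 rises came to 3 without either L-coded flox library and 2 without cKO library 7. Anxa1 of the injury list, an annexin abundant in neutrophils, fell (-2.37, SE 0.24).

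**Figure D4:**
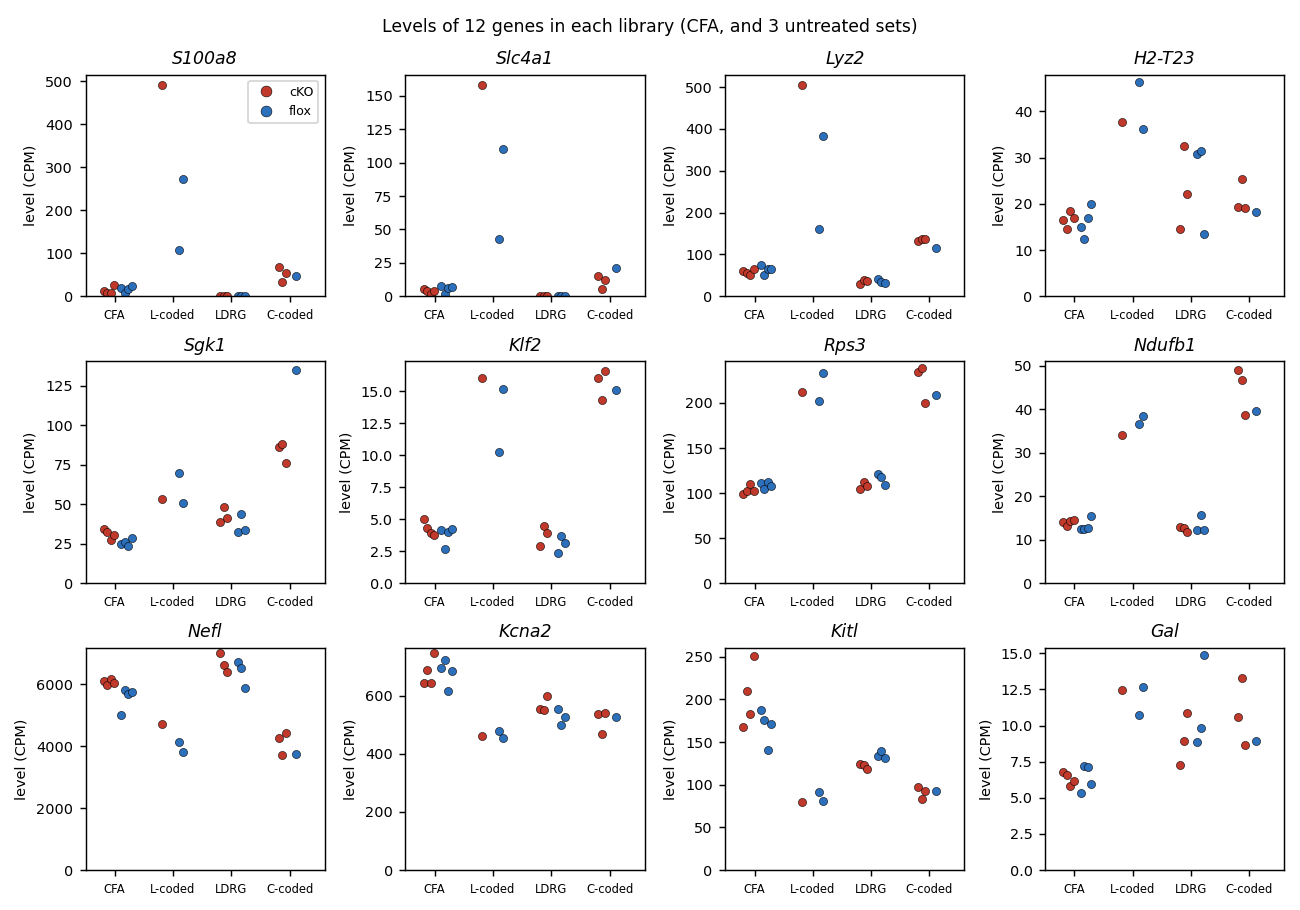
Level of 12 genes (vertical axes, CPM) in each of 21 libraries, by set (horizontal axes; the CFA set, then the L-coded, LDRG and C-coded untreated sets) and genotype (colour); each point is 1 library. For Kcna2 and Kitl all CFA libraries lie above, and for Gal below, all 13 untreated libraries. For Rps3 and Ndufb1 the CFA and LDRG sets overlap, below the L-coded and C-coded sets.

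Sterol synthesis genes were more often higher than lower in CFA. Of 29 cholesterol and fatty acid synthesis genes 14 rose and 1 fell (median 0.17), with 9 higher when flox library 5 or cKO library 7 was left out. CFA against LDRG libraries gave 2 higher and 5 lower. Hmgcs1, which makes HMG-CoA, lay at 1202 to 1441 CPM (median 1279.9) in CFA and at 925, 1082 and 1037 CPM in the L-coded libraries (log2 difference 0.37, SE 0.06), and rose against LDRG libraries as well (0.16, SE 0.04). Hsd17b7, of the later sterol steps, rose against the L-coded set (0.52, SE 0.04) and did not pass against the LDRG set. Of 23 unfolded protein response genes 6 rose and 4 fell (26.1% and 17.4%, beside 20.3% and 20.0% of all genes), and 2 fell without flox library 6. The list includes Dnajb9, an endoplasmic reticulum co-chaperone that rose by 0.92 (SE 0.13) against L-coded and 0.30 (SE 0.09) against LDRG libraries. The calcium handling genes of the endoplasmic reticulum split into 8 higher and 7 lower of 36 (22.2% and 19.4%), near the shares of all genes. Atp2a2, the common calcium pump (0.42, SE 0.06), and the chaperone Canx (0.30, SE 0.04) rose, while Atp2a3, the pump of blood and epithelial cells, fell (-1.93, SE 0.24).

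Cytosolic heat shock genes rose for 11 of 21 members and fell for 3; leaving out single libraries gave 7 to 10 higher, the fewest without cKO library 7. Heat shock factor binds inverted GAA and TTC units; GAANNTTC, which reads alike on both strands, was found in the 250 bases before 2088 of 27025 RefSeq genes (7.73%) and before 6 of the 16 list members in that table. Hspe1 and Hspd1, the partner chaperonins of mitochondria, are neighbours transcribed in opposite directions, and the stretch chr1:55088019-55088116 (GRCm38.p6, plus strand, motif in capitals) lies before the start of both.
Hspe1: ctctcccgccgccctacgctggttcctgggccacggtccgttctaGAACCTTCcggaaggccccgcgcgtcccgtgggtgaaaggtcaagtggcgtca
Of these neighbours Hspe1 passed the test and Hspd1 did not. Hspe1 fell, with 2.996 to 3.99 CPM (median 3.47) in CFA against 6.24, 6.31 and 6.50 CPM in the L-coded libraries (log2 difference -0.84, SE 0.10, edgeR adjusted p = 1.33e-04). For Hspd1 the log2 difference was 0.03 (SE 0.10, edgeR adjusted p = 0.818). The difference between the 2 genes was not tested, and the longest annotated transcripts are 964 bases for Hspe1 and 2423 bases for Hspd1. Hsp90aa1, the inducible HSP90, rose: it lay at 689 to 960.2 CPM (median 773) in CFA against 519, 519.7 and 477 CPM in the L-coded libraries (log2 difference 0.63, SE 0.07). Dnajb4, a co-chaperone (0.42, SE 0.06), and Hspa8, the constitutive HSP70 (0.29, SE 0.05), rose less. None of these passed against LDRG libraries, where the list had none higher and 4 lower. Against flox library 5 alone none of the list was higher and 2 were lower, and for the sterol list 2 were higher and 1 lower.

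Of 17 prostaglandin genes 4 were higher and 4 lower (23.5% each, beside 20.3% and 20.0% of all genes). The counts were 4 and 7 without CFA flox library 1, 2 and 2 without flox library 6, and 2 higher without cKO library 7. Ptgs1, the constitutive cyclooxygenase, fell (-1.70, SE 0.22), as did Ptgds, the prostaglandin D synthase of meninges (-1.27, SE 0.29), whereas Ptgir, the prostacyclin receptor of nociceptors, rose, with 73.04 to 95.3 CPM (median 83.6) in CFA against 58.0, 58.5 and 57.9 CPM in the L-coded libraries (log2 difference 0.52, SE 0.07). Ptgds did not pass without cKO library 7. Against the LDRG set 7 genes of the list were higher in CFA and 1 lower (median 0.37), and LDRG against L-coded libraries had 3 higher and 9 lower. The named genes had the opposite sign there, with Ptgds higher in CFA than in LDRG libraries (1.84, SE 0.35), Ptgir lower (-0.27, SE 0.08), and Ptgs1 not called (0.37, SE 0.17). Of 16 ERK feedback genes 6 rose, Spred2 among them (0.40, SE 0.05), and 2 fell; 3 rose without cKO library 7, and CFA against LDRG libraries gave 2 higher and 5 lower. Of 31 Hox genes 6 rose, Hoxb8 among them (0.64, SE 0.09), and 1 fell. The rises made 19.4%, beside 20.3% of all genes, and CFA against LDRG libraries gave 1 higher and 5 lower. Of 10 adipocyte genes 1 fell, and of 8 genes of spinal cord glia 2 rose and 2 fell.

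**Figure D5:**
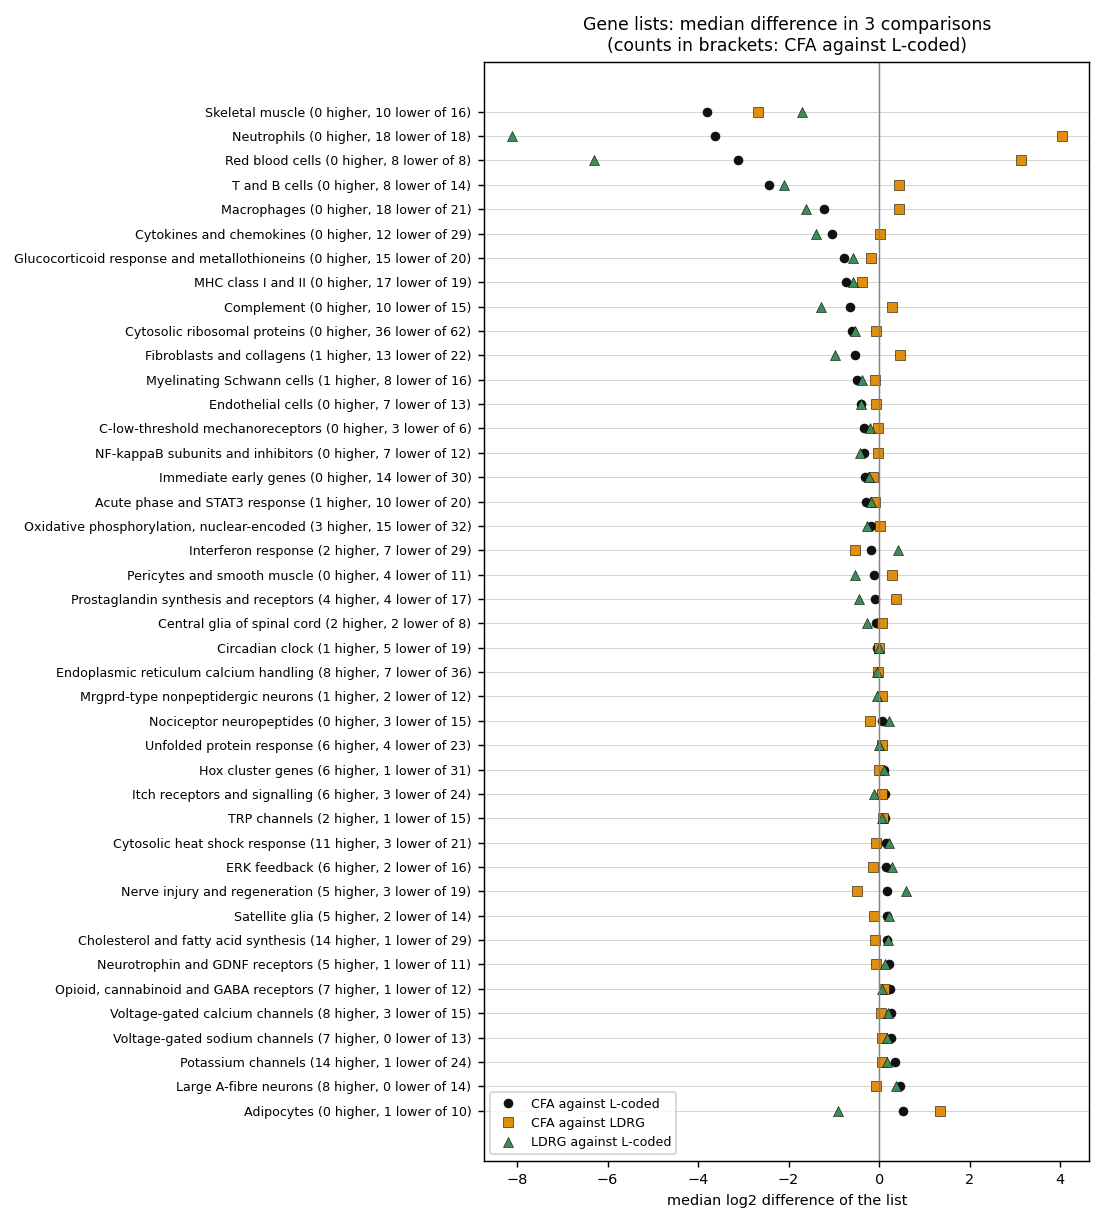
Median log2 difference of each gene list (horizontal axis) in 3 comparisons (symbols), with the numbers of genes called in CFA against L-coded libraries beside each list name. Neutrophil and red cell lists lie far below 0 in CFA against L-coded and in LDRG against L-coded libraries and far above 0 in CFA against LDRG libraries, while channel lists lie above 0 in the first and near 0 in the last.

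Few genes set the CFA libraries apart from all untreated libraries of the series. In 135 of 17314 genes (0.780%) all 8 CFA libraries lay above all 13 untreated ones, and in 63 (0.364%) below. The 10 largest rises among those called against the L-coded set included 8 zinc finger genes with numbered Zfp names, which encode DNA-binding proteins: Zfp758 (1.33), Zfp982 (1.22), Zfp934 (1.21), Zfp994 (1.20), Zfp943 (1.16), Zfp975 (1.10), Zfp442 (1.07) and Zfp995 (1.06), each as a log2 difference from the L-coded set. Zfp758 lay at 30.6 to 66.8 CPM (median 45.005) in CFA, at 17.7, 20.1 and 17.6 CPM in the L-coded and 23.1 to 25.0 CPM in the LDRG set. These genes belong to families of near-identical copies, so reads shared between copies make the level of each uncertain. Over all 399 genes with such names, a list chosen after its values were seen, 126 were higher and 20 lower (31.6% and 5.01%), 18 of them above all untreated libraries. Zfp442 did not pass without cKO library 7.

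The other 2 rises were Kitl and Hipk2. Kitl (chr10:100015630-100100416, plus strand), the ligand of the KIT receptor on mast cells and some sensory neurons, lay at 141 to 251 CPM (median 179) in CFA against 79.5, 92.0 and 80.6 CPM in the L-coded and 119 to 139 CPM in the LDRG set. Its log2 difference was 1.13 (SE 0.13, edgeR adjusted p = 1.36e-04) against L-coded and 0.53 (SE 0.10, edgeR adjusted p = 0.00259) against LDRG libraries. Hipk2, a nuclear kinase, lay at 11.6 to 21.1 CPM (median 13.1) in CFA against 6.58, 6.77 and 9.01 CPM in the L-coded libraries (log2 difference 1.03, SE 0.19). CFA flox library 1 stood apart from the other CFA libraries on the second principal component, at 37.9 against -17.3 to 12.4, and without it 6705 genes were called in the whole comparison.

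Among the 10 largest falls below all untreated libraries, Gal followed Tcim and Net1. Tcim, a small regulator of Wnt signalling, lay at 4.30 to 7.34 CPM (median 5.99) in CFA against 10.8, 15.8 and 11.2 CPM in the L-coded set (log2 difference -1.12, SE 0.15) and 7.85 to 10.7 CPM in the LDRG set. Net1 (chr13:3882018-3918220, minus strand), an exchange factor for RhoA, lay at 10.1 to 13.6 CPM (median 11.4) in CFA against 21.4, 23.6 and 20.8 CPM in the L-coded and 17.4 to 21.3 CPM in the LDRG set. It fell in both comparisons, with log2 differences of -0.90 (SE 0.09, edgeR adjusted p = 5.79e-05) against L-coded and -0.69 (SE 0.07, edgeR adjusted p = 3.93e-05) against LDRG libraries. The remaining 7 were the secreted factor C1qtnf12 (-0.67), the heterochromatin protein Cbx1 (-0.67), Phlda1 (-0.64), the histone chaperone Anp32b (-0.63), the kinase Srpk3 (-0.58), Tma7 (-0.56) and the adhesion protein Igsf11 (-0.50). Srpk3 did not pass without flox library 6.

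The 10 largest rises against the L-coded set alone included 3 genes that were both low and uneven between CFA libraries, Hsd3b7, Cbx2 and Calhm4. Hsd3b7, a bile acid synthesis enzyme, was called at a log2 difference of 4.23 (SE 1.48), with 0.115 to 6.02 CPM (median 4.87) in CFA and 0.312, 0.134 and 0.101 CPM in the L-coded set, but spanned 0.0445 to 9.03 CPM in the C-coded set. Pus3, a pseudouridine synthase of transfer RNA, lay at 4.61 to 12.5 CPM (median 7.67) in CFA against 0.193, 0.994 and 0.707 CPM in the L-coded libraries (log2 difference 3.83, SE 0.47) and spanned 0.427 to 12.4 CPM in LDRG libraries. The polycomb gene Cbx2 (2.95) and the channel family gene Calhm4 (1.95) overlapped between the arms. Hsd3b7, Cbx2 and Calhm4 lost the call when single libraries of either arm were left out. Chaer1 (3.80) and Dlx1as (3.20), both noncoding, Cldn34c2 (1.64), the ribosomal pseudogene Rpl7-ps8 (1.60) and the metalloprotease Pappa (1.52) lay above the L-coded set in all 8 CFA libraries. Of these 5 genes the first 3 and Pappa overlapped between CFA and LDRG libraries, and Rpl7-ps8 was lower in CFA than in LDRG libraries (-0.97, SE 0.15). Cpeb4 (chr11:31872211-31935634, plus strand), which controls translation through polyadenylation, differed: it lay at 37.6 to 211 CPM (median 145) in CFA, against 26.4, 29.7 and 31.0 CPM in the L-coded and 24.0 to 30.0 CPM in the LDRG set. Its log2 differences were 2.19 (SE 0.53, edgeR adjusted p = 0.00733) and 2.24 (SE 0.35, edgeR adjusted p = 9.86e-04). Within CFA the level of Cpeb4 was uneven. It was 40.3 CPM in cKO library 2, 37.6 CPM in flox library 2 and at least 135 CPM elsewhere in CFA. C-coded libraries spanned 18.8 to 106 CPM, and the difference from them did not pass (1.05, SE 0.55, edgeR adjusted p = 0.141).

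The 10 largest falls were led by genes at 0 counts in all 8 CFA libraries. Against a floor of 3 counts over the 8 libraries, the pseudogene Gpr137b-ps was at least 5137-fold lower, the class II gene H2-Ea at least 1374-fold, Wfdc21 at least 981-fold, Zfp939 at least 783-fold and Zscan30 at least 452-fold. All 5 were at 0 in the LDRG set too. H2-Ea rested on 1 library, with 0, 22.5 and 0.0577 CPM in cKO library 7 and flox libraries 5 and 6, and it lost the call without CFA flox libraries 1, 2, 3 or 4. Over all genes, 27 were at 0 in all 14 libraries of the CFA and LDRG table and called lower, and 3 of all listed genes were at 0 there with at least 100 counts in each of the other 7 libraries. The pseudogene Pisd-ps1 (-8.32), an immunoglobulin kappa variable gene (-7.66), the osteoblast product Bglap (-7.35), the amino acid transporter Slc38a5 (-7.06) and the leukocyte gene Plac8 (-6.81) followed, each with a median of 0 in CFA. Of 13 granule precursor and osteoblast genes of bone marrow, a list chosen after its values were seen, 11 fell and none rose.

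The edgeR interaction of CFA and genotype was called for 8 genes (0.0462% of those tested). The log2 difference in cKO minus that in flox was positive for 5 (0.0289%) and negative for 3 (0.0173%). The untreated cKO arm of that test is a single library, library 7, so the calls cannot be told apart from differences of that library. The genotype covariate and this interaction also take the CFA genotype labels as given, although Tmem45b overlapped between CFA cKO and CFA flox libraries. Pnma2 (chr14:66911170-66921023, plus strand), a neuronal antigen gene, had 129 to 138 CPM in the 4 libraries labelled CFA cKO against 10.03 CPM in library 7, and 130.4 to 146 CPM in the 4 CFA flox libraries against 109 and 102 CPM (difference of the log2 differences, cKO minus flox, 3.34, SE 0.11, edgeR adjusted p = 4.70e-07). Susd6 had 172 to 182 CPM in CFA cKO against 165.4 CPM in library 7, and 176 to 189 CPM in CFA flox against 50.7 and 52.7 CPM in flox libraries 5 and 6 (difference -1.74, SE 0.08, edgeR adjusted p = 6.84e-06). The libraries labelled CFA cKO and CFA flox overlapped for both genes, and it was the untreated libraries that differed. Of the other untreated libraries, Pnma2 lay at 127 to 139 CPM in the LDRG and 88.4 to 108 CPM in the C-coded set, both of which include cKO libraries, so library 7 alone was low. The same held for Hoxd8, at 6.27 CPM in library 7 against 24.0 to 31.4 CPM in LDRG and 28.0 to 35.1 CPM in C-coded libraries, and for Snrnp48, at 20.4 CPM against 43.8 to 54.7 and 45.4 to 50.1 CPM. Susd6 was uneven within the other untreated sets, spanning 42.7 to 211 CPM in LDRG and 27.3 to 177 CPM in C-coded libraries. The log2 values of the other 6 were Hoxd8 (2.11), Cdc14b (1.36), Snrnp48 (1.22), Nucks1 (1.12), Slc13a3 (-1.39) and Tpd52l2 (-0.75). Slc13a3, Tpd52l2 and Nucks1 lost the call without single libraries. At an unadjusted p under 0.05 there were 1102 genes, and DESeq2 called 96.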

How the data were processed

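The authors deposited raw read counts per gene for 21 libraries in 2 tables, of 14 and 7 libraries; 0 columns were left unused. The submitters' processing notes name fastp 0.23.2, BWA 2.2.1, SAMtools 1.14, DESeq2 1.40.2 and build mm10, without their roles, and the counting tool and its use of strand are not given in the sources used here. Genotype was taken from sample titles, because the genotype label names the Cre line for all samples. The 24381 genes in both tables (of 24524 and 24512) were joined by name. Counts of the 11 libraries were filtered with filterByExpr (minimum count 10, minimum total 15), scaled by TMM and tested with edgeR 4.0.16 (R 4.3.3, limma 3.58.1), genotype being a covariate and p-values adjusted by Benjamini-Hochberg over 17314 genes. The SE is the log2 difference over the root of F. The fit was tested on simulated data. All 22 replicate pairs differed beyond counting noise (chi-square per degree of freedom 26.9 to 111). Depth was 53364389 to 72502294 counts, and floors cover counting error only. Positions are from GENCODE vM21 and promoters from RefSeq (GRCm38.p6). The members and lists were chosen with earlier results of these data known. Named genes were Tmem45b, Mrgprd, the 10 largest rises and falls among called genes with at least 1 CPM in 1 arm, the same among genes beyond all 13 untreated libraries, and up to 4 members of each list by p; Xist, Ddx3y, Hoxa9, Hoxa10, Mt1, Hspd1 and some further list members were picked once their values were known, and some genes that the rule names are not reported here. Alternatives were other scaling, DESeq2 1.42.0, filters, covariates, other untreated sets and leaving out each library.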

Additional observations from a re-analysis of the deposited data

Results flagged for a closer look

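In 21 of 252 groups of 4 CFA libraries looked at, 1 library stood apart from the other 3 with its genotype label by Dixon's criterion. Chance gives about 1 in 20 groups, or 13. CFA flox library 1 accounted for 6 of them. It was highest for the fibronectin gene Fn1 (87.4 CPM, others 50.1 to 53.9), for the muscle channel gene Ryr1 (3.58 CPM, others 1.27 to 1.64) and for Zfp442 (4.36 CPM, others 2.12 to 2.32), and lowest for Nefl (5017 CPM, others 5692 to 5818). It also held the only counts of its group for Pisd-ps1 (0.0724 CPM) and for an immunoglobulin kappa variable gene among the 10 largest falls (0.0579 CPM). Where the other 3 libraries are at 0, any count meets the criterion, so the chance rate does not apply to such groups, here and below. CFA flox library 2 was lowest for Hsd3b7 (0.115 CPM, others 5.09 to 6.02), Csf3r (1.39 CPM, others 3.04 to 3.21) and Klf2 (2.68 CPM, others 3.98 to 4.23). CFA flox library 3 was lowest for Cbx2 (0.795 CPM, others 7.12 to 7.59) and held the only counts of its group for Slc38a5 (0.0994 CPM). CFA flox library 4 was lowest for Igsf11 (14.3 CPM, others 19.0 to 19.6) and highest for Ndufb1 (15.5 CPM, others 12.5 to 12.6).

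Among CFA cKO libraries, library 1 was highest for Tcim (7.34 CPM, others 5.94 to 6.16) and alone in Pisd-ps1 (0.184 CPM). Library 3 was highest for Pus3 (12.5 CPM, others 7.04 to 7.44) and Gfra2 (151 CPM, others 136 to 138) and lowest for Cnr2 (0.174 CPM, others 0.397 to 0.431). Library 4 was highest for Scn4b (557 CPM, others 523 to 526), Dnajb4 (115 CPM, others 92.9 to 93.9) and Tpd52l2 (53.3 CPM, others 50.8 to 50.9).

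For 8 genes the edgeR interaction of CFA and genotype was called (cKO minus flox, log2): Pnma2 by 3.34, Hoxd8 by 2.11, Cdc14b by 1.36, Snrnp48 by 1.22, Nucks1 by 1.12, Tpd52l2 by -0.75, Slc13a3 by -1.39 and Susd6 by -1.74. Each rests on L-coded cKO library 7, the only untreated cKO library with that code. For Pnma2 (10.03 CPM), Hoxd8 (6.27 CPM) and Snrnp48 (20.4 CPM) that library lay below all other untreated libraries, cKO ones included, whose lowest were 88.4, 24.0 and 43.8 CPM.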

How the results depend on the processing

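The CFA against L-coded count of 6979 genes stayed within 1.5 times under RLE size factors, DESeq2 (7449), weaker and stricter filters, a fit of all 21 libraries and leaving out single libraries (4806 to 6913). The same held with the C-coded (7599), all F-coded (7693) or the L-coded and C-coded libraries together (8404) as untreated. RLE scaling kept 6979 but split them into 3357 higher and 3622 lower. The count moved to 1385 with a sex score, 1194 with flox library 5 as the only untreated, 2861 with the LDRG and 3600 with all 13 untreated libraries, 4151 in flox and 1772 in cKO libraries alone, 5 with a red cell score and 2692 with a muscle score. Fewer untreated libraries enter several of these fits, and otherwise the cause was not tested. LDRG against L-coded libraries gave 5803 to 7112 genes without single libraries. The genotype count of 8 was 96 with DESeq2 and 7 to 36 without single libraries, at 36 without flox library 6, 24 without CFA flox library 1 and 17 without flox library 5. Tmem45b was called under none of these settings. Mrgprd lost the call with RLE factors (0.33), no filter (0.33), at least 5 CPM (0.29), no genotype term (0.32), without genes of very uneven counts (0.32), the sex score (0.45), flox library 5 (0.46) or both M-coded libraries (0.26) as the only untreated, LDRG libraries (0.19), flox (0.39) or cKO (0.20) libraries alone, the red cell (0.53) and muscle (0.28) scores, 1 fit of 21 libraries (0.30) and without X and Y genes (0.32). Without single libraries it ranged from 0.26 to 0.40. It kept the call with DESeq2 (0.33), and with C-coded (0.76), F-coded (0.75), L-coded and C-coded (0.55) and all 13 (0.38) untreated libraries. With the LDRG libraries as untreated, 54 named genes had the opposite sign to their L-coded difference (log2 difference): Chaer1 at -0.11, Dlx1as at -0.32, Rpl7-ps8 at -0.97, Plac8 at 0.73, Mpo at 1.89, Mmp9 at 3.30, S100a8 at 5.40, Csf3r at 2.06, Slc4a1 at 3.79, Lyz2 at 0.79, Itgam at 1.37, C1qc at 0.29, Cd79a at 0.75, C3 at 0.48, C5ar1 at 0.66, Ccl5 at 0.12, Tgfb1 at 0.39, H2-Ab1 at 0.28, Lrg1 at 1.20, Hp at 1.24, Lcn2 at 2.64, Klf4 at 0.13, Klf2 at 0.24, Ccn2 at 0.60, Fn1 at 1.42, Col1a1 at 0.75, Mbp at 0.14, Rpl32 at 0.012, Ndufb1 at 0.077, Ndufa5 at 0.078, Atp5j at 0.12, Nefl at -0.16, Nefh at -0.19, Cacna2d3 at -0.062, Cnr2 at 0.65, Trpc1 at -0.094, Mrgprx1 at -0.071, Il17ra at 0.058, Penk at 0.0036, Gfra1 at -0.063, Anxa1 at 1.32, Hsd17b7 at -0.079, Hspd1 at -0.15, Hspa8 at -0.054, Atp2a3 at 0.037, Ptgs1 at 0.37, Ptgir at -0.27, Ptgds at 1.84, Oas3 at 1.10, Oasl2 at -0.53, Hoxb8 at -0.024, Hoxa9 at -0.072, Mt1 at 0.54 and Spred2 at -0.20. Fewer did so elsewhere. With the C-coded libraries as untreated, the sign turned for Hsd3b7 at -1.005, Cbx2 at -1.09, Ccl5 at 0.24, Penk at 0.32, Hspd1 at -0.16, Oas3 at 0.52 and Hoxb8 at -0.011. With all F-coded libraries as untreated, the sign turned for Hsd3b7 at -0.33, Cbx2 at -0.61, Penk at 0.064 and Hspd1 at -0.16. With all 13 untreated libraries, the sign turned for Cbx2 at -0.018, Rpl7-ps8 at -0.11 and Hspd1 at -0.12. With the L-coded and C-coded libraries together, the sign turned for Hsd3b7 at -0.10, Cbx2 at -0.19 and Hspd1 at -0.085. With cKO libraries alone, the sign turned for Tmem45b at 0.011 and Hspd1 at -0.11. With genes of at least 5 CPM, the sign turned for Hspd1 at -0.025. With the muscle score, the sign turned for Hspd1 at -0.11. With the red cell score, the sign turned for Ptgds at 0.20 and Oasl2 at -0.024. With the sex score, the sign turned for Hspd1 at -0.051. With flox library 5 as the only untreated, the sign turned for Hspd1 at -0.043. For Hspd1, whose difference did not pass in any case, leaving out single libraries gave -0.051 to 0.091. Of 3935 values of 125 named genes under these settings, 3386 kept sign and side of the threshold, 464 kept the sign and lost the call, and 4 gained it. Of the counts per list, 2042 stayed close to their first value and 706 moved. No paired analysis was possible because the labels number the CFA libraries 1 to 4 and the L-coded libraries 5 to 7. Leaving out genes at 0 in 1 table and genes on X and Y were settings chosen after seeing the data. Genes of a few counts, such as Ccl5 and Bglap, are limited by depth.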
